A study of Saccharomyces cerevisiae with 9 samples.

Results

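The genes described here are 10 genes of Saccharomyces cerevisiae that code for enzymes of purine synthesis and of the one-carbon (folate) pathway that feeds it: ADE1, ADE2, ADE4, ADE6, ADE8, ADE13, ADE16, ADE17, MTD1 and SHM2. They were taken as the probes whose systematic name is the open reading frame of the gene, which gave 1 probe for each, and they are 10 of the 6199 genes on the array and 10 of the 5820 genes tested. All 10 lay well above background on 9 of 9 arrays, so none was lost to the filter on dim probes. All samples came from the diploid yeast BY4743, and HenGC-treated, SoyGC-treated and vehicle control cells were each measured on 3 arrays. The GC was added at 40 ug/ml for 17 h, from a mushroom (hen of the woods) in HenGC and from soybean in SoyGC, whereas the labels give no dose or time for the vehicle. The series' title speaks of a sphingolipid, GC is not spelled out, and glucosylceramide is its usual meaning in that field. The strain's disabled marker genes HIS3, LEU2 and URA3 were well above background on 0 of 9 arrays. The labels do not say whether replicates were grown separately, so every p-value here rests on a spread between arrays that may be technical.

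Yeast builds the purine ring stepwise on a phosphoribosyl group until inosine monophosphate is reached, which then goes to AMP or GMP. Along the way the pathway takes up formyl groups carried by tetrahydrofolate, and that carbon comes largely from serine, which serine hydroxymethyltransferase splits into glycine and a folate-bound carbon. Serine is also the amino acid that serine palmitoyltransferase joins to a fatty acid in the first step of sphingolipid synthesis. The pathway genes are known to be induced together by the transcription factors Bas1 and Pho2 when adenine is scarce, and ADE17, MTD1 and SHM2 are among the targets of these factors.

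On the arrays 92.4% to 95.8% of spots lay well above background and 0 were saturated. The array named vehicle 3 stood apart from the other vehicle arrays: it correlated with them across genes at 0.977 and 0.979, where vehicle 1 and vehicle 2 correlated at 0.998, and 515 of its genes lay more than 2-fold away from the other vehicle arrays' mean, 503 of them lower. HenGC 1 and 2 shared slide 2, SoyGC 1 and 2 shared slide 1 with vehicle 1 and 2, and the replicates numbered 3 shared slide 3. Slide 3 was scanned on a second day, here called scan day 2. On scan day 1 the difference between HenGC and either other group cannot be told apart from that between slides 2 and 1. Each level is given as log2 of the signal over the same array's 75th percentile. They are not comparable between genes, since each gene was read by another probe.

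None of the 10 genes passed the test in either GC preparation. In limma's test, with p-values adjusted over all 5820 genes and a threshold of 0.05, 0 of 10 differed between HenGC and vehicle, where 1.19% of all genes did (0.911% higher, 0.275% lower), and 0 of 10 between SoyGC and vehicle, where 9.24% did (3.32% higher, 5.93% lower). At an unadjusted p under 0.05 the count was 2 of 10 for HenGC against vehicle (21.4% of all genes) and 1 of 10 for SoyGC against vehicle (27.6% of all genes). The median difference of the 10 genes was -0.084 for HenGC against vehicle and -0.061 for SoyGC against vehicle on the log2 scale, beside 0.00021 and 0.0037 over all genes. These medians were not stable. The SoyGC median was -0.013 without vehicle 3, 0.0094 without SoyGC 3, 0.0089 after quantile normalization and 0.048 within scan day 1. The HenGC median ran from -0.17 with slide as a fixed block to -0.017 within scan day 1. In that slide fit HenGC rests on HenGC 3 alone, since slide 2 held only HenGC arrays. The shares of all genes called also rest on single arrays: with 1 array left out, the number called was 3 to 50 in HenGC (69 with all arrays) and 2 to 387 in SoyGC (538 with all arrays), lowest without vehicle 2 in HenGC and without SoyGC 3 in SoyGC. The groups did not overlap at 3 of 10 genes for HenGC against vehicle, where 30.0% of all genes did not (12.2% higher, 17.8% lower), and at 2 of 10 for SoyGC against vehicle, where 34.2% did not (13.6% higher, 20.5% lower). The shares called, past the unadjusted threshold or without overlap are near the background or below it, so they are not a result about these genes. Both comparisons use the same vehicle arrays, so likeness between them is partly built in.

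**Figure D1:**
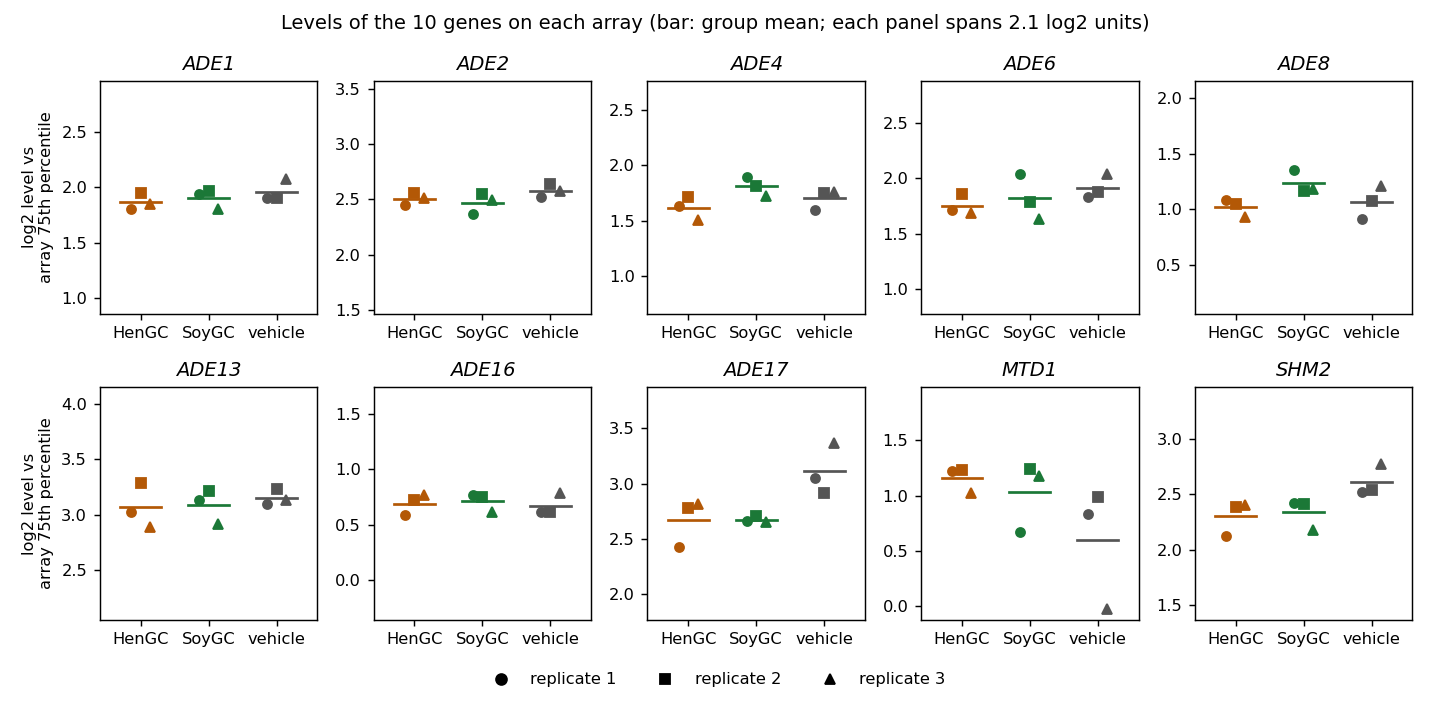
Log2 level relative to the array's 75th percentile (vertical axis) of each of the 10 genes in HenGC, SoyGC and vehicle arrays, with 1 marker shape for each replicate number and a bar at each group mean. The groups overlap at most genes, the vehicle arrays lie above all treated arrays for ADE17 and SHM2, and vehicle 3 is far below every other array for MTD1.

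The intervals show how large a change could have gone unseen. For HenGC against vehicle the 95% intervals of 7 of 10 genes lay within 0.5 of 0 on the log2 scale, a 1.41-fold change either way, and those of 9 of 10 within 1, a 2-fold change. The same counts were 7 and 9 for SoyGC against vehicle. The standard errors (SE) of the 10 genes had a median of 0.114, near the 0.131 of all genes, and ranged from 0.087 to 0.257. MTD1 had the largest SE and was the gene whose interval reached past a 2-fold change in both comparisons.

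**Figure D2:**
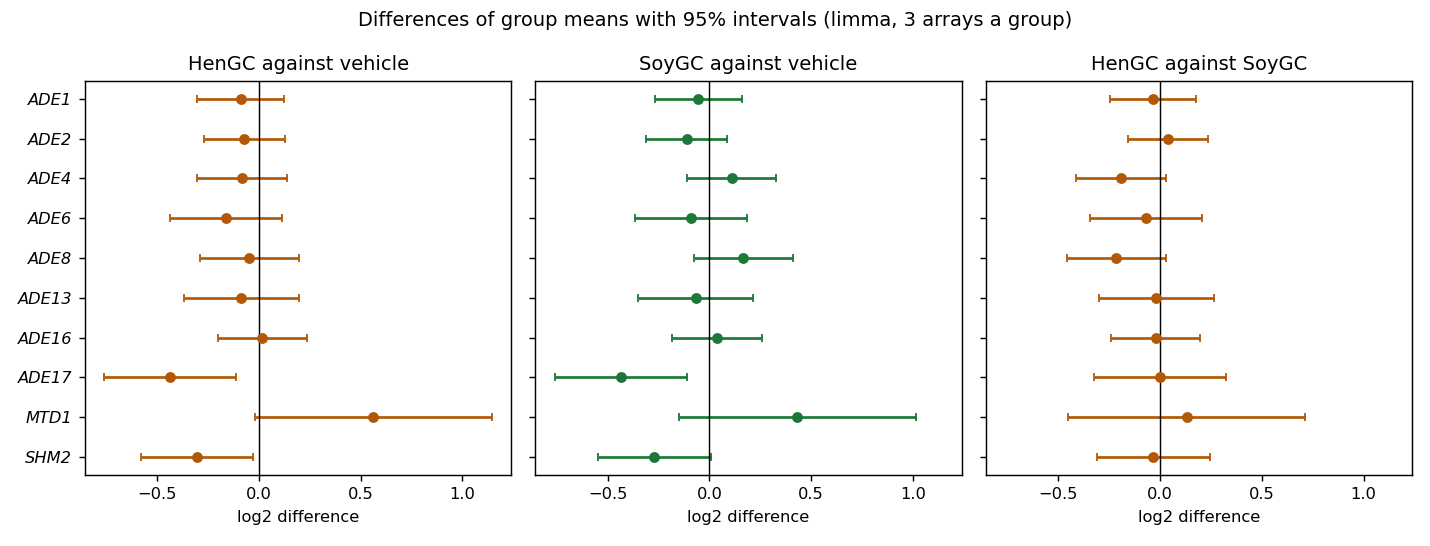
Log2 difference between group means (horizontal axis) with 95% intervals from limma for the 10 genes in each of 3 comparisons, 3 arrays per group. ADE17 has an interval below 0 against vehicle in both preparations, SHM2 only in HenGC, and the interval of MTD1 is the widest in each panel. The intervals are not adjusted over genes, so an interval without 0 equals an unadjusted limma p under 0.05. Against vehicle 21.4% of all genes reached that in HenGC and 27.6% in SoyGC.

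The first steps of the purine pathway showed small differences. ADE4, the amidotransferase of the committed step, stood at 1.63, 1.71 and 1.51 in HenGC, at 1.90, 1.82 and 1.72 in SoyGC and at 1.60, 1.75 and 1.76 in vehicle. Its difference was -0.083 ± 0.097 (SE, n = 3 per group) for HenGC against vehicle and 0.11 ± 0.097 for SoyGC against vehicle, with limma adjusted p of 0.604 and 0.504. ADE8, the glycinamide ribonucleotide transformylase that adds the first folate-borne formyl group, stood at 1.08, 1.05 and 0.93 in HenGC, at 1.36, 1.16 and 1.18 in SoyGC and at 0.91, 1.07 and 1.21 in vehicle. Neither gene separated the treated arrays from the vehicle arrays, and vehicle 1 was the lowest vehicle array for both. For ADE8 the differences against vehicle were -0.046 ± 0.11 in HenGC and 0.17 ± 0.11 in SoyGC (limma adjusted p = 0.809 and 0.352). ADE6, which makes formylglycinamidine ribonucleotide in the next step, ranged from 1.69 to 1.86 in HenGC, from 1.64 to 2.04 in SoyGC and from 1.83 to 2.04 in vehicle. SoyGC alone thus spanned the range of all 9 arrays for ADE6, and the gene's differences against vehicle were -0.16 ± 0.12 in HenGC and -0.091 ± 0.12 in SoyGC.

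The genes of the middle steps showed small differences as well. ADE2, the carboxylase whose loss turns colonies red, ranged from 2.45 to 2.56 in HenGC, from 2.37 to 2.54 in SoyGC and from 2.52 to 2.64 in vehicle. Its differences against vehicle were -0.072 ± 0.087 in HenGC and -0.11 ± 0.087 in SoyGC. ADE1, the SAICAR synthetase that follows, ranged from 1.81 to 1.95 in HenGC, from 1.81 to 1.96 in SoyGC and from 1.90 to 2.07 in vehicle. ADE13, the adenylosuccinate lyase that acts in the ring synthesis and again on the way to AMP, ranged from 2.89 to 3.28 in HenGC, from 2.91 to 3.21 in SoyGC and from 3.10 to 3.23 in vehicle. For ADE1 the difference was -0.089 ± 0.094 in HenGC and -0.054 ± 0.094 in SoyGC. For ADE13 it was -0.086 ± 0.125 in HenGC and -0.068 ± 0.125 in SoyGC. All of these groups overlapped, and the limma adjusted p of ADE1, ADE2 and ADE13 lay between 0.445 and 0.749 in both comparisons.

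ADE16 and ADE17 code for isozymes of the last steps, which add the final formyl group and close the ring to inosine monophosphate, and their measured levels differed in pattern. ADE17 stood at 2.43, 2.78 and 2.82 in HenGC, at 2.66, 2.71 and 2.65 in SoyGC and at 3.05, 2.91 and 3.37 in vehicle. Every treated array was below every vehicle array, and vehicle 3 was the highest. ADE17 averaged 2.68 ± 0.21 in HenGC, 2.68 ± 0.030 in SoyGC and 3.11 ± 0.23 in vehicle (SD, n = 3 each). The difference against vehicle was -0.43 ± 0.14 (SE) for HenGC, with a 95% interval of -0.76 to -0.11, and -0.43 ± 0.14 for SoyGC, with the same interval to 2 decimals. The treated levels were 74.0% of the vehicle level in both, and the limma adjusted p was 0.153 for HenGC and 0.0875 for SoyGC, so neither passed. Of all genes tested, 4.57% had a difference as low or lower in HenGC and 8.69% in SoyGC.

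ADE16 ranged from 0.58 to 0.77 in HenGC, from 0.61 to 0.77 in SoyGC and from 0.61 to 0.79 in vehicle, with full overlap of the groups. Its differences were 0.018 ± 0.097 in HenGC and 0.038 ± 0.097 in SoyGC, with limma adjusted p of 0.919 and 0.82. The log2 ratio of ADE17 to ADE16, centred on the mean of the 9 arrays, was -0.28, -0.069 and -0.080 in HenGC, -0.23, -0.17 and -0.091 in SoyGC and 0.31, 0.17 and 0.45 in vehicle. The ratio was lower in all treated arrays than in any vehicle array, by 0.45 in HenGC and by 0.47 in SoyGC. A two-sided exact permutation test of 3 against 3 arrays gave p = 0.1 for each, the smallest p it allows, so the design cannot place this below 0.05. Of 12 such tests over 4 ratios, the smallest exact p was this 0.1, or 0.3 after Benjamini-Hochberg adjustment over the 12. The ratios were chosen after the values of the genes had been seen. The genes are alike in sequence, and whether their probes cross-hybridise was not tested.

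**Figure D3:**
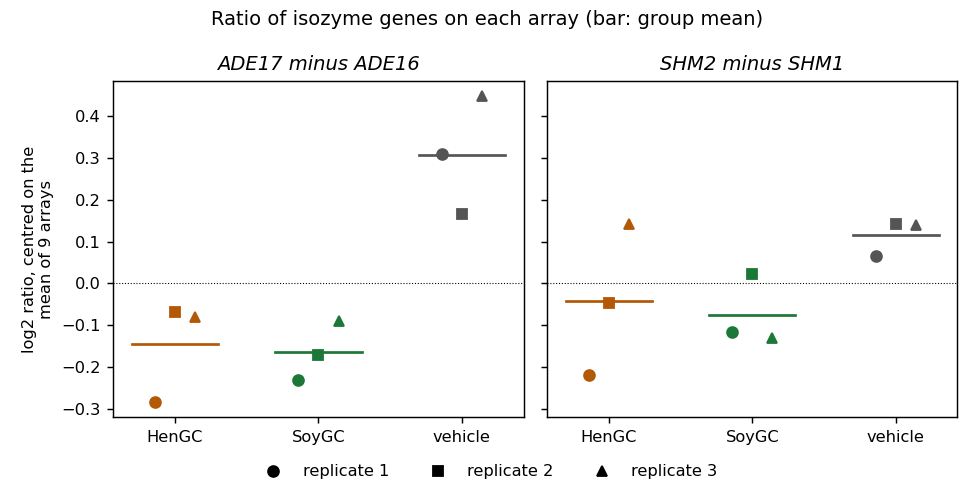
Log2 ratio of ADE17 to ADE16 (left) and of SHM2 to SHM1 (right) on each array, centred on the mean of the 9 arrays, with bars at group means. For ADE17 to ADE16 the HenGC and SoyGC arrays lie between -0.28 and -0.069, below the vehicle arrays at 0.17 to 0.45, whereas for SHM2 to SHM1 the HenGC and vehicle arrays overlap.

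SHM2, the cytosolic serine hydroxymethyltransferase that loads the carbon of serine onto folate, stood at 2.12, 2.38 and 2.40 in HenGC, at 2.42, 2.41 and 2.18 in SoyGC and at 2.52, 2.53 and 2.77 in vehicle. All treated arrays were below all vehicle arrays, the closest pair being SoyGC 1 and vehicle 1, and vehicle 3 was again the highest. The difference was -0.30 ± 0.12 for HenGC against vehicle (95% interval -0.58 to -0.027) and -0.27 ± 0.12 for SoyGC against vehicle (-0.55 to 0.0059). That is 81.0% of the vehicle level in HenGC and 82.9% in SoyGC, and the limma adjusted p of 0.206 and 0.19 did not pass. SHM1, which codes for the mitochondrial isozyme, differed from vehicle by -0.15 ± 0.10 in HenGC and by -0.080 ± 0.10 in SoyGC. The SHM2 to SHM1 ratio was 0.16 lower in HenGC than in vehicle, where an exact permutation test gave p = 0.3. In SoyGC it was 0.19 lower without overlap (exact p = 0.1, the smallest possible).

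MTD1, the cytosolic NAD-dependent methylenetetrahydrofolate dehydrogenase that oxidises the carbon SHM2 supplies, pointed the other way. It stood at 1.22, 1.23 and 1.02 in HenGC, at 0.67, 1.24 and 1.18 in SoyGC and at 0.83, 0.98 and -0.025 in vehicle. All HenGC arrays were above the vehicle arrays, SoyGC 1 was below vehicle 1 and 2, and vehicle 3 was the lowest array of all, 0.93 below the mean of the other vehicle arrays. The difference was 0.56 ± 0.26 for HenGC against vehicle (95% interval -0.019 to 1.15) and 0.43 ± 0.26 for SoyGC against vehicle (-0.15 to 1.01), or 1.48-fold and 1.35-fold. The limma adjusted p was 0.243 and 0.317, so the gene did not pass in either. The log2 ratio of MTD1 to ADE3, whose enzyme can do the same step with another cofactor, was 0.91 higher in HenGC and 0.78 higher in SoyGC than in vehicle (exact permutation p = 0.1 and 0.2), and 0.55 and 0.41 higher without vehicle 3. The ratio of MTD1 to MIS1, the mitochondrial counterpart of ADE3, was 0.71 and 0.21 higher (exact permutation p = 0.2 and 0.7), with overlapping groups in both, and without vehicle 3 the SoyGC difference was -0.21.

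Vehicle 3 moved with each of the genes that came nearest to a difference. It lay 0.39 above the mean of vehicle 1 and 2 for ADE17, 0.24 above it for SHM2 and 0.93 below it for MTD1, and of all genes 6.53% were as high or higher in it than ADE17 and 9.90% as low or lower than MTD1. Without vehicle 3 the differences of ADE17 were -0.31 in HenGC and -0.31 in SoyGC, and those of SHM2 were -0.22 and -0.19. For MTD1 they were 0.25 in HenGC and 0.12 in SoyGC, against 0.56 and 0.43 with all arrays (limma adjusted p = 0.529 and 0.732). ADE17 had a limma adjusted p of 0.311 in HenGC and 0.191 in SoyGC without that array. Within scan day 1, which leaves out all arrays of slide 3, ADE17 differed from vehicle by -0.38 in HenGC and -0.29 in SoyGC. On that day SHM2 differed by -0.27 in HenGC and -0.11 in SoyGC, and MTD1 by 0.32 and 0.046. Within scan day 2, with 1 array per group and no test, ADE17 differed by -0.55 in HenGC and -0.71 in SoyGC. SHM2 differed there by -0.36 and -0.59, and MTD1 by 1.049 and 1.20. In the fit with scan day as a fixed block, 0 of the 10 genes passed against vehicle in either preparation. With slide as a fixed block 0 of the 10 passed in SoyGC. For HenGC that fit rests on HenGC 3 alone, since slide 2 held only HenGC arrays, so it gives no usable count. How much of these differences comes from the slide or the day was not tested.

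**Figure D4:**
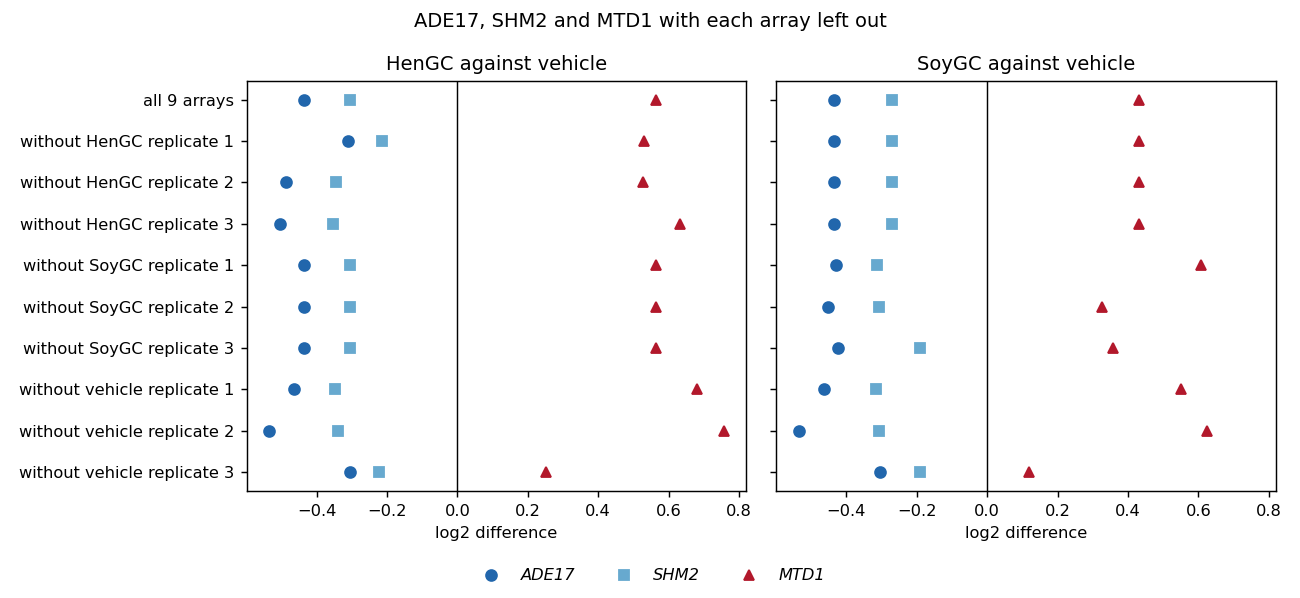
Log2 difference (horizontal axis) of ADE17, SHM2 and MTD1 against vehicle in HenGC (left) and SoyGC (right) with all 9 arrays and with each array left out in turn (rows). ADE17 and SHM2 stay below 0 and MTD1 above 0 in every row, and MTD1 comes nearest to 0 without vehicle replicate 3, at 0.25 and 0.12.

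The 2 preparations, given at the same dose and for the same time, were compared directly over these 10 genes. In limma's test 0 of 10 genes differed between HenGC and SoyGC, where 0% of all 5820 genes passed and 12.6% had an unadjusted p under 0.05, a level that 0 of the 10 reached. The largest differences were at ADE8, -0.21 ± 0.11 (95% interval -0.46 to 0.029, adjusted p = 0.458), and at ADE4, -0.19 ± 0.097 (-0.41 to 0.029, adjusted p = 0.468). The HenGC arrays were below all SoyGC arrays for both genes, which made 2 of 10 without overlap, beside 21.5% of all genes. ADE17 averaged the same in both preparations to 2 decimals, with an interval of -0.32 to 0.32, and MTD1 differed by 0.13 with an interval of -0.45 to 0.71. The intervals of 9 of 10 genes lay within 0.5 of 0 and those of all 10 within 1. A missed threshold does not show that the preparations act alike.

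The 10 genes did not all move together over the arrays, and MTD1 was the one that ran against the rest. The arrays share their normalization and slides. Pearson's r over the 9 arrays was above 0 for 30 of the 45 pairs of genes, and for 31 without vehicle 3. That share was not computed over all genes. Each pair with MTD1 was below 0 over the 9 arrays, but without vehicle 3 those with ADE2 (0.39) and ADE13 (0.024) were above 0. Against the mean of the other 9 genes, MTD1 had r = -0.76, and the others ran from 0.12 for ADE8 to 0.84 for ADE1. ADE17 and SHM2 were the closest pair at 0.93, and 0.86 without vehicle 3. ADE4 and ADE8 followed at 0.89. MTD1 ran against ADE17 (r = -0.80), SHM2 (-0.80), ADE6 (-0.75) and ADE1 (-0.71), and without vehicle 3 these values were -0.42, -0.55, -0.68 and -0.23. These correlations are descriptions only. The mean of the 10 genes, each centred on its own mean, stayed between -0.096 and 0.065 on the 9 arrays, lowest in HenGC 1 and highest in vehicle 3. The genes outside the set whose levels followed this small mean most closely over the 9 arrays were BAT2 (r = 0.94), HPA3 (0.92), PTC2 (0.92), YLR179C (0.91) and ADH3 (0.90). BAT2 codes for the cytosolic branched-chain aminotransferase and ADH3 for a mitochondrial alcohol dehydrogenase. These genes were picked as the highest r among all other genes tested, so high values are built in.

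Of the rest of the purine pathway, 0 of 3 genes passed in either preparation, with a median difference of -0.20 in HenGC and -0.19 in SoyGC. ADE3, the cytosolic enzyme that interconverts the folate-bound carbon into the formyl donor, came closest: it stood at 3.43, 3.61 and 3.48 in HenGC, at 3.59, 3.56 and 3.39 in SoyGC and at 3.82, 3.79 and 3.96 in vehicle. All treated arrays were below the vehicle arrays, and the difference was -0.35 ± 0.10 in HenGC (limma adjusted p = 0.12) and -0.34 ± 0.10 in SoyGC (adjusted p = 0.0608). Without vehicle 3 the differences were -0.29 in both, with adjusted p of 0.26 and 0.13. Of 4 genes of the GMP branch 0 passed. IMD3, an IMP dehydrogenase, had the largest differences there, -0.29 ± 0.10 in HenGC and -0.14 ± 0.10 in SoyGC. The median difference of these 4 genes was -0.22 in HenGC and -0.063 in SoyGC. Of 5 PRPP synthetase genes, which supply the phosphoribosyl group, 0 passed, with a median of -0.073 in HenGC and 0.13 in SoyGC, and the largest differences were those of PRS5 in HenGC (-0.22 ± 0.13) and PRS4 in SoyGC (0.25 ± 0.16).

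Of 11 genes of purine salvage and uptake, 0 passed in HenGC against vehicle, where 1.19% of all genes did. In SoyGC against vehicle 1 rose and 2 fell, where 3.32% of all genes were higher and 5.93% lower. Whether these counts exceed those shares was not tested. The medians were -0.17 in HenGC and -0.20 in SoyGC. AAH1, the adenine deaminase that turns adenine into hypoxanthine, stood at 0.83, 0.46 and 0.62 in HenGC, at 1.29, 1.03 and 1.09 in SoyGC and at 0.35, 0.098 and 0.35 in vehicle. The groups were ordered without overlap, HenGC lying between SoyGC and vehicle. AAH1 rose by 0.87 ± 0.13 in SoyGC (1.83-fold, limma adjusted p = 0.0165), and its difference in HenGC was 0.37 ± 0.13 (adjusted p = 0.162). Without vehicle 3 the SoyGC value was 0.91 (adjusted p = 0.023), and the alternatives gave adjusted p between 0.00175 and 0.0734. It did not pass without SoyGC 1 (0.0544), SoyGC 3 (0.0723) or vehicle 2 (0.0734). HenGC against SoyGC itself gave -0.50 ± 0.13 with an adjusted p of 0.275, so a difference between the preparations was not shown for AAH1.

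GUD1, the guanine deaminase, stood at -2.89, -2.93 and -2.84 in HenGC, at -3.32, -3.31 and -3.40 in SoyGC and at -3.07, -2.87 and -2.66 in vehicle. It fell by 0.47 ± 0.11 in SoyGC (limma adjusted p = 0.0387), and HenGC overlapped with vehicle. FCY21, a homologue of the purine and cytosine permease gene FCY2, stood at -1.32, -1.22 and -1.11 in HenGC, at -1.29, -0.998 and -1.09 in SoyGC and at -0.75, -0.71 and -0.28 in vehicle. All treated arrays were lower than the vehicle arrays for FCY21, which fell by 0.55 ± 0.14 in SoyGC (adjusted p = 0.0483) and had a difference of -0.64 ± 0.14 in HenGC (adjusted p = 0.0692). Without vehicle 3, which was the highest vehicle array for GUD1 and FCY21, neither passed in SoyGC (adjusted p = 0.0671 and 0.085). Over the alternatives the adjusted p in SoyGC ranged from 0.00699 to 0.151 for GUD1 and from 0.0194 to 0.139 for FCY21. With each of the 9 arrays left out in turn, GUD1 passed in 1 fit and FCY21 in 0.

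Of 17 genes of folate and one-carbon metabolism, which again include ADE3, 0 passed in HenGC, where 1.19% of all genes did. In SoyGC 1 rose and 0 fell, where 3.32% of all genes were higher and 5.93% lower. The median difference of the 17 genes was -0.018 in HenGC and 0.029 in SoyGC, close to that of all genes. The gene that rose was GCV1, the T subunit of the mitochondrial glycine decarboxylase complex, which yields a folate-bound carbon from glycine. GCV1 stood at -0.42, 0.037 and -0.065 in HenGC, at -0.080, 0.13 and -0.44 in SoyGC and at -0.88, -0.72 and -0.72 in vehicle. Every treated array was above the vehicle arrays. It rose by 0.65 ± 0.17 in SoyGC (limma adjusted p = 0.0468), and its difference in HenGC was 0.62 ± 0.17 (adjusted p = 0.109). The SoyGC value was 0.83 on the arrays scanned first and 0.28 on slide 3. Without vehicle 3 it was 0.67 and did not pass (adjusted p = 0.0769). The alternatives gave adjusted p between 0.00786 and 0.126, and GCV1 passed in 1 of the 9 fits that leave out 1 array. Its partners in the complex did not pass: the differences of GCV2 were -0.57 ± 0.30 in HenGC and -0.37 ± 0.30 in SoyGC, and those of GCV3 were 0.15 ± 0.12 and 0.13 ± 0.12.

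The regulators of the purine genes did not pass. BAS1 differed from vehicle by 0.34 ± 0.13 in HenGC and by 0.42 ± 0.13 in SoyGC (limma adjusted p = 0.186 and 0.0748), and PHO2 by -0.094 ± 0.12 and -0.22 ± 0.12. Serine synthesis had 0 of 4 genes past the threshold in either preparation (median -0.18 in HenGC and -0.071 in SoyGC), with SER33, a phosphoglycerate dehydrogenase, at -0.28 ± 0.12 in HenGC and -0.25 ± 0.12 in SoyGC. Histidine synthesis, which shares the intermediate AICAR with the purine pathway, had 0 of 6 (median -0.078 in HenGC and -0.046 in SoyGC), with HIS2 at -0.30 ± 0.18 in HenGC and -0.25 ± 0.18 in SoyGC. Of 8 genes of pyrimidine synthesis, 0 passed in HenGC, where 1.19% of all genes did, and 2 rose in SoyGC, where 3.32% did. Whether this count exceeds that share was not tested. The medians were 0.055 in HenGC and 0.096 in SoyGC. The genes that rose were URA7, a CTP synthase (0.64 ± 0.12, adjusted p = 0.0283), and URA10, the minor orotate phosphoribosyltransferase (0.56 ± 0.12, adjusted p = 0.0321). URA10 stood at 0.91, 1.04 and 1.07 in HenGC, at 1.07, 1.20 and 1.06 in SoyGC and at 0.34, 0.59 and 0.73 in vehicle. Its treated arrays were thus above the vehicle arrays in both preparations. Without vehicle 3 the HenGC differences were 0.54 for URA10 and 0.31 for URA7 (limma adjusted p = 0.0669 and 0.306). In SoyGC both also passed without vehicle 3 (limma adjusted p = 0.0342 for URA7 and 0.0296 for URA10). Their adjusted p in SoyGC over the alternatives ranged from 0.00236 to 0.0884 for URA7 and from 0.00336 to 0.0996 for URA10. URA7 did not pass without SoyGC 1, 2 or 3 or vehicle 2, and URA10 without SoyGC 1, 2 or 3 or vehicle 1 or 2. In HenGC against SoyGC 0 genes of these lists passed. By 1 gene per list, that with the largest difference, the values beside AAH1 were those of FOL1 (-0.40), URA7 (-0.39), PRS4 (-0.32), SER3 (0.31), GUA1 (-0.24), HIS6 (-0.23), PHO2 (0.12) and ADE12 (-0.036), with limma adjusted p between 0.299 and 0.949.

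**Figure D5:**
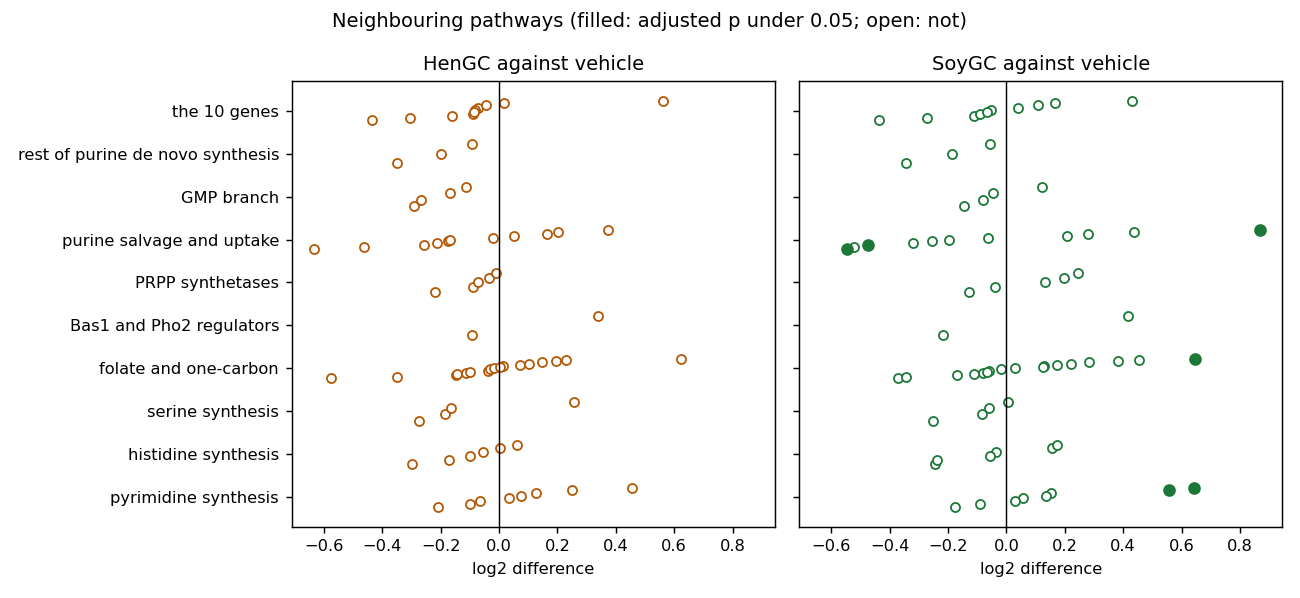
Log2 difference against vehicle (horizontal axis) of each gene in the 10-gene set and in 9 neighbouring lists, for HenGC (left) and SoyGC (right). Filled points passed limma's test at an adjusted p under 0.05: none in HenGC, and AAH1, GUD1, FCY21, GCV1, URA7 and URA10 in SoyGC.

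The genes next to the 10 on the chromosomes were measured too. Of 19 such protein-coding neighbours that were tested, 0 passed in HenGC against vehicle and 2 in SoyGC against vehicle, or 10.5%, near the 9.24% of all genes. The 2 genes flank MTD1. RPF2, a factor of large ribosomal subunit assembly, rose by 0.93 (limma adjusted p = 0.0397) and TRZ1, the tRNA 3′ processing endonuclease, by 0.45 (adjusted p = 0.0435). With 1 of the 9 arrays left out in turn, RPF2 passed in 2 fits and TRZ1 in 1. RPF2 stood at -0.60, -0.78 and -0.90 in HenGC, at -0.72, -0.51 and -0.35 in SoyGC and at -1.06, -1.31 and -1.99 in vehicle. Like MTD1 it was lowest in vehicle 3, by 0.80 relative to vehicle 1 and 2, and MTD1 and RPF2 correlated at 0.84 over the 9 arrays and at 0.47 without vehicle 3. TRZ1 was 0.088 above the other vehicle arrays in vehicle 3 and did not follow MTD1 (r = 0.049). Of 11 genes used by haploid cells, 10 were tested. MF(ALPHA)1 and MF(ALPHA)2 fell in HenGC (-0.70 and -1.15), where 0.275% of all genes fell. MFA2 fell in SoyGC (-0.68), where 5.93% of all genes fell. Whether these counts exceed those shares was not tested. Of the 10 tested, 9 had a negative difference in HenGC (median -0.29) and 10 in SoyGC (median -0.16). MFA2 stood at -7.38, -7.22 and -7.16 in HenGC, at -7.01, -7.67 and -7.18 in SoyGC and at -6.62, -6.76 and -6.43 in vehicle. It was thus below the vehicle arrays in HenGC as well, but did not pass there. In HenGC against SoyGC 0 passed (largest, MF(ALPHA)2, at -0.75, limma adjusted p = 0.241). The vehicle levels of MF(ALPHA)1, MF(ALPHA)2 and MFA2 lay between -6.76 and -4.95 on the log2 scale. In the 9 fits that leave out 1 array, MF(ALPHA)1 passed in 2, MF(ALPHA)2 in 7 and MFA2 in 0. MFA2 was well above background on 2 of 3 HenGC arrays, 2 of 3 SoyGC arrays and 3 of 3 vehicle arrays, so it passed the filter through vehicle and its SoyGC mean includes an array not well above background.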

How the data were processed

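The submitters' processing notes name R 3.0.2, with no role, and Agilent Feature Extraction 11.0.1.1. The deposited scanner files hold linear intensity per spot, which Feature Extraction background-subtracted and detrended within each array, per the file headers. A deposited value table was equal to the mean intensity of a probe's 7 spots within a relative tolerance of 1e-06 and served as an alternative. The number of arrays limits precision. The log2 of the processed signal minus each array's 75th percentile was averaged over spots without outlier flags. Genes with a probe well above background (over 50% of spots) on all 3 arrays of a group were tested, by the brightest probe. Names came from RefSeq's R64 table: of 6256 probes 5748 matched by systematic name, 17 by transcript accession, 462 kept the file's name and 29 had none. The files name another build, so no coordinates are given. limma 3.58.1 in R 4.3.3 (lmFit, eBayes, Benjamini-Hochberg) was fitted to all 9 arrays with a mean per group, and the step was tested on simulated data. There it recovered 36% of planted changes of 0.5 on the log2 scale in HenGC and 37% in SoyGC, so most planted changes of that size were missed. Of planted changes of 1 it recovered 83% and 79%, and it called 13 and 8 unchanged genes. The simulated noise was independent between genes and arrays, with no shift shared by a whole array. These shares therefore need not hold for the real arrays. The 10 genes and the lists were chosen with earlier results of these data known. Named genes were the 10, those of each list past the threshold or else the one with the largest difference, and the 5 nearest in profile. Outside that rule, values were also given for SHM1, MIS1, GCV2 and GCV3, and for PHO2 against vehicle. RPF2 and TRZ1 were named as chromosomal neighbours past the threshold. Alternatives covered scaling, normexp background correction (on median signals, since mean signals are not in the files), the value table, filters, probe choice, 2-group fits, array weights, scan day, slide, replicate number and each array left out.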

Additional observations from a re-analysis of the deposited data

How the results depend on the processing

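The count of the 10 genes past the threshold was 0 in each comparison under each alternative, except with array weights, where it was 1 for HenGC against vehicle: ADE17, at -0.36 with a limma adjusted p of 0.0444. The estimate of those weights stopped before it converged. It gave vehicle 2 a weight of 4.16, vehicle 1 a weight of 1.45 and vehicle 3 a weight of 0.15, so the vehicle mean in that fit rests mostly on vehicle 2. Leaving out each array gave counts of 0 to 0. Of 690 tested values over 23 alternatives for 30 gene differences, 39 changed sign, none of a size above 0.1226 and none past the threshold. The signs of ADE17, SHM2 and MTD1 against vehicle did not change under any of them. Quantile normalization turned ADE2 (0.0064) and ADE8 (0.0055) in HenGC against vehicle and ADE1 (0.013) and ADE13 (0.0049) in SoyGC against vehicle, and median centring turned ADE16 to -0.060 in HenGC and -0.018 in SoyGC. Array weights gave ADE8 0.011 in HenGC, ADE1 0.021 in SoyGC and ADE2 -0.015 in HenGC against SoyGC. In that last comparison the authors' deposited table gave ADE17 0.0016. There slide as a fixed block, where HenGC rests on HenGC 3 alone, gave ADE16 0.045, ADE17 0.023 and SHM2 0.067. Scan day 1 alone gave ADE8 0.072 in HenGC, and ADE1 0.051, ADE6 0.063 and ADE13 0.0059 in SoyGC. With each array left out, HenGC against vehicle ranged from -0.12 to 0.027 for ADE8, from -0.19 to 0.0030 for ADE13 and from -0.020 to 0.076 for ADE16. SoyGC against vehicle ranged from -0.084 to 0.0029 for ADE1, from -0.20 to 0.0013 for ADE6 and from -0.13 to 0.018 for ADE13. HenGC against SoyGC ranged from -0.011 to 0.079 for ADE2, from -0.16 to 0.041 for ADE6, from -0.13 to 0.071 for ADE13, from -0.069 to 0.033 for ADE16, from -0.071 to 0.12 for ADE17, from -0.046 to 0.24 for MTD1 and from -0.11 to 0.058 for SHM2. The cause of these changes was not tested. Over all genes, the counts past the threshold in HenGC and SoyGC against vehicle were 69 and 538. They were 37 and 395 after quantile normalization and 875 and 1243 with array weights. With slide as a fixed block the SoyGC count was 187. No HenGC count is given for that fit, since HenGC there rests on HenGC 3 alone. In HenGC the fits that drop 1 array gave 3 (vehicle 2), 5 (HenGC 1), 9 (HenGC 2), 16 (vehicle 1), 23 (HenGC 3), 25 (SoyGC 3), 34 (SoyGC 1), 36 (SoyGC 2) and 50 (vehicle 3). In SoyGC they gave 2 (SoyGC 3), 22 (vehicle 2), 39 (SoyGC 1), 48 (SoyGC 2), 170 (vehicle 3), 278 to 320 (a HenGC array) and 387 (vehicle 1). Without HenGC 2 the median of the 10 genes in HenGC was -0.13. The replicate numbers were not taken to pair the samples, although the arrays numbered 3 share a slide and scan day: deviations of same-numbered arrays correlated at 0.29, 0.041 and 0.18 between HenGC and vehicle at -0.65, 0.43 and -0.45 between SoyGC and vehicle, and at 0.085, 0.56 and 0.52 between HenGC and SoyGC. With the replicate block 0 of the 10 genes passed in each comparison, and 83 and 587 genes did in all.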
